A study of Mus musculus with 8 samples.

Results

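The AzaC by TSA interaction asks whether 2 drugs given together moved a transcript by the sum of their separate effects. For each probe set it is the AzaC change in the presence of TSA minus the AzaC change in its absence, that is (AzaC/TSA minus TSA) minus (AzaC minus untreated), on log2 signal. A value of 0 means that the fold changes multiply. A positive value, called higher than additive here, means that the AzaC/TSA signal stood above that product, and a negative value, called lower than additive, that it stood below. The value was computed in experiment 1 and experiment 2 separately and averaged, over all 8 arrays of the series. Of 7987 probe sets tested, 249 (3.12%) departed at least 2-fold, a log2 value of 1, in the same direction in both experiments. Of these, 84 (1.05%) were higher than additive and 165 (2.07%) lower. This split depended on the scaling: with each array centred on its median it was 142 higher and 107 lower, and with quantile normalization 113 and 111.

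The RNA came from neurosphere cultures, floating colonies grown from neural stem and progenitor cells. They were started from single forebrains of mouse embryos at embryonic day 14.5, and every embryo carried a bcl2 transgene, so all groups share it. The promoter of the transgene is not given in the sources used here. The 4 groups, each with 1 array from each of 2 independent experiments, received AzaC/TSA (500 nM AzaC with 150 nM TSA), TSA (150 nM), AzaC (500 nM) or nothing (untreated), for 2 days. AzaC, 5-aza-2’-deoxycytidine, is built into DNA as cells copy it and traps DNA methyltransferases there, so methyl groups at CG dinucleotides are lost with division. TSA, trichostatin A, blocks histone deacetylases, so acetyl groups build up on histones. In tumour cell lines the pair is known for switching on methylated, silent genes more strongly than either drug alone, which is the usual reason for testing them together.

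Signals are the deposited linear intensities, which had a 2%-trimmed mean of 200.1 on every array. Median signals ran from 59.2 to 72.7 per array. Values under a floor of 20.01, 10% of the trimmed mean, were raised to it. A single change with such arrays in its lower group is a lower bound of its size, while an interaction that rests on them may err either way. Of the 9 neural stem cell markers on the array, Sox2 (2391 to 4830), Fabp7 (1063 to 10920) and Nes (1049 to 3003) were bright on all 8 arrays, while Vim was dim (21.3 to 56.0) and not tested. Among markers of other cell types, Mog and Cnp of oligodendrocytes, Ptprc of blood, Aif1 and Itgam of microglia and Cdh5 of endothelium were under the floor on every array. The summed signal of the 5 microglial markers was 266 and 560 with AzaC/TSA, 373 and 571 with TSA, 373 and 158 with AzaC, and 320 and 171 untreated. Cd68, a lysosomal protein of microglia and macrophages that TSA alone raised (2.69, adjusted p = 0.0314), made up most of the sum in the TSA-exposed arrays, at 166.9 and 474.1 with AzaC/TSA, 203.3 and 425.2 with TSA, 30 and 41.2 with AzaC, and 39.4 and 53 untreated. Cx3cr1 had 82.8 and 29.6 with AzaC/TSA, against 145.4 and 75.8 untreated. Their part in any gene described here was not tested. In bulk RNA, fewer cells of a type and less RNA per cell cannot be told apart.

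No probe set passed the interaction test. With limma over all 8 arrays, 0 of 7987 reached an adjusted p of 0.05, and the smallest adjusted p was 0.290. At an unadjusted p of 0.05 there were 142 probe sets (1.78%), 61 higher and 81 lower than additive (0.764% and 1.01%), and all 142 had the same sign in each. Blocking on the experiment again gave 0, with 258 (3.23%) at an unadjusted p of 0.05 and a smallest adjusted p of 0.270. The SE and p of single genes come from the fit without the block, unless a block is named. In that fit, differences in level between the experiments count as error. Values with 1 array left out come from the same unblocked fit, so the array left in that group meets means over both experiments. The same arrays did give calls for a single drug. TSA alone changed 401 probe sets (5.02%) and TSA added to AzaC changed 223 (2.79%), while AzaC alone and AzaC added to TSA each changed 0. The median standard error of an interaction was 0.578 on the log2 scale, and its median 95% interval reached 1.31 to either side. Departures under about that size therefore lay within the unadjusted interval of a typical probe set with 2 arrays per group. A call after adjustment over 7987 probe sets needs more. The largest departure, -4.87 for Cd4, had an adjusted p of 0.290. What follows describes values that recur between the experiments, and none of the genes passed the interaction test.

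The experiments share no array, so the value in one can be read against the other. Across the 7987 probe sets the interactions of experiments 1 and 2 correlated with Pearson r = 0.071 and Spearman rho = 0.099, and 4395 (55.0%) had the same sign, 2040 (25.5%) positive and 2355 (29.5%) negative. Both describe the cloud of probe sets and carry no p, since genes are not independent of each other. A departure of at least 2-fold was seen for 1271 probe sets (15.9%) in experiment 1 and for 1506 (18.9%) in experiment 2. The 249 that did so the same way in both stand beside 192 (2.40%) that did so in opposite ways. Most departures of that size in one experiment were therefore not seen in the other.

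Recurrence was read by sign and by size. Of the 575 probe sets at least 2-fold higher than additive in experiment 1, 43.1% were positive in experiment 2, against 46.5% of all probe sets. Of the 696 at least 2-fold lower in experiment 1, 59.6% were negative in experiment 2, against 53.04% of all. Read the other way, 59.1% of the 628 higher in experiment 2 were positive in experiment 1, against 49.2% of all, and 56.8% of the 878 lower in experiment 2 were negative there, against 50.7%. By sign alone, positive departures of experiment 1 were thus no more often positive in experiment 2 than all probe sets, and the other 3 sets stood above theirs. By size, all 4 sets stood above the share over all probe sets, which does not by itself show recurrence. Of the 249 that departed 2-fold the same way, 178 were in the dimmest quartile by mean log2 signal. So were 140 of the 192 that departed in opposite ways. Choosing by size thus favours dim probe sets, which pass 2-fold more often in either direction. Of the higher in experiment 1, 14.6% were again at least 2-fold higher in experiment 2, against 7.86% of all, and of the lower 23.7% were again 2-fold lower, against 11.0%. Of the higher in experiment 2, 13.4% were 2-fold higher in experiment 1, against 7.2% of all, and of the lower 18.8% were 2-fold lower, against 8.71%.

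**Figure D1:**
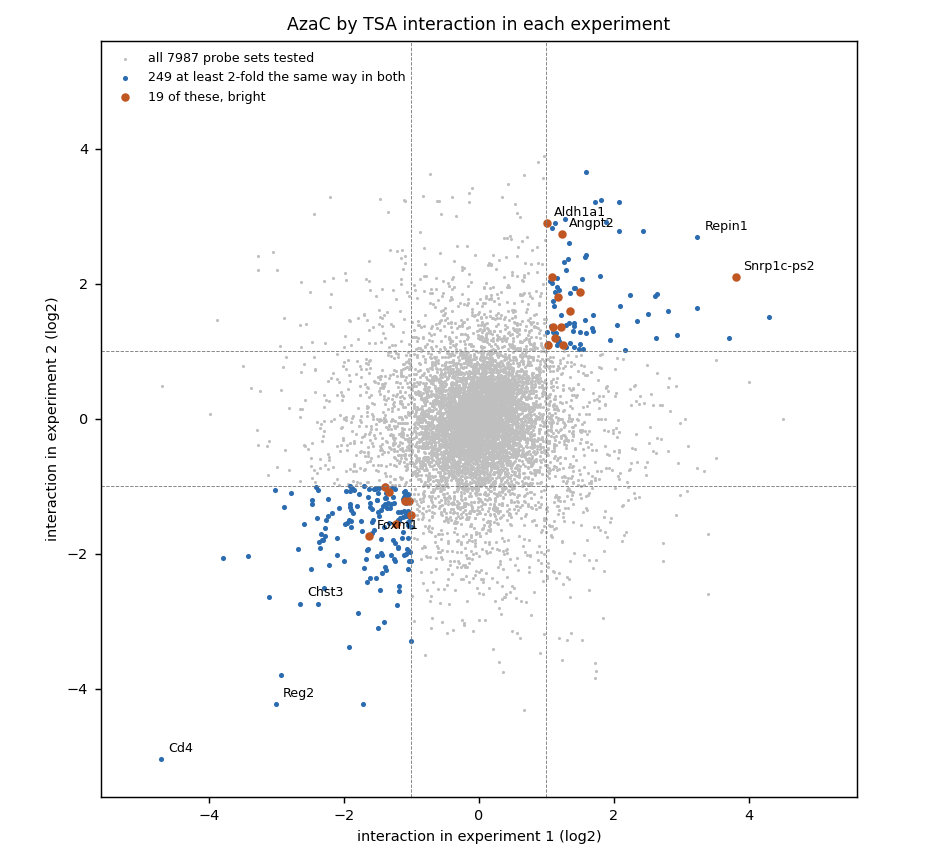
Interaction of each probe set in experiment 1 (horizontal axis, log2) and in experiment 2 (vertical axis, log2), with dashed lines at a 2-fold departure. The 249 blue and orange points depart the same way in both experiments, Cd4 stands farthest from the centre at -4.70 and -5.04, and the cloud as a whole is nearly round (r = 0.071).

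Agreement between the experiments followed signal. From the dimmest to the brightest quartile of probe sets, ranked by mean log2 signal, r between experiments was 0.033, 0.038, 0.104 and 0.254. The share of the same sign was 51.4%, 51.9%, 56.0% and 60.7% in the same order. In the dimmest quartile 178 probe sets departed 2-fold the same way and 140 in opposite ways. In the brightest quartile 7 did so the same way and 0 in opposite ways. The 249 were mostly dim: 57.4% had at least 1 array under the floor, against 16.8% of all tested, and the median of their mean signals was 57.7, against 167. Of the 249, 89 had an unadjusted p under 0.05, against 142 (1.78%) of all tested. The interaction chose the 249, so a small p is favoured and the count tests nothing.

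**Figure D2:**
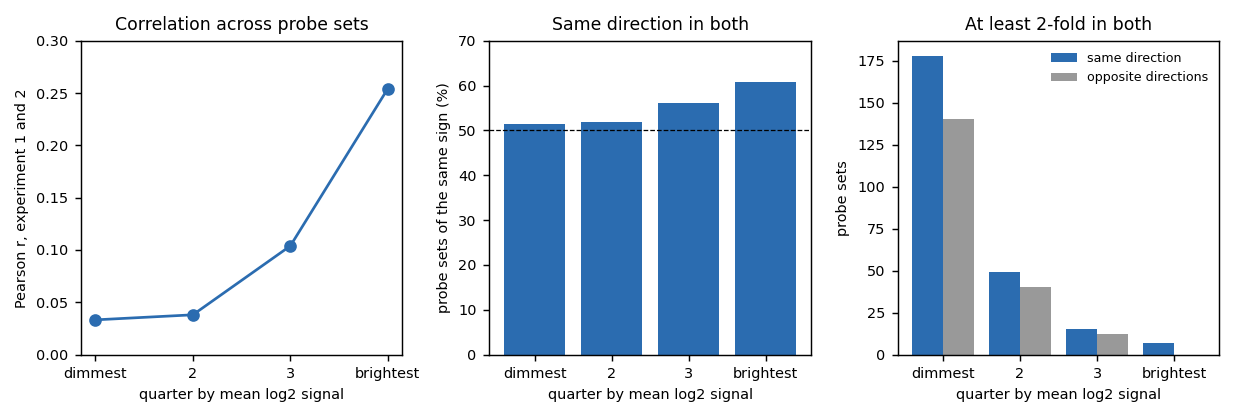
Agreement of the interaction between experiments by quartile of signal, from dimmest to brightest, as Pearson r across probe sets (left), percent of probe sets with the same sign (middle, dashed line at 50%) and number departing at least 2-fold in the same or in opposite directions (right). Agreement is highest in the brightest quartile, which holds the fewest large departures.

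The shape of the departures is best seen from where AzaC/TSA stood among the groups, a reading chosen after the values were seen. A transcript at least 2-fold above each of the other 3 groups in both experiments was rare: 2 of 7987 probe sets (0.025%) did so. They were named S100a13, a small calcium-binding protein, and Mcpt1, a mast cell protease. S100a13 had signals of 249 and 164 with AzaC/TSA, 122.5 and 12.8 with TSA, 86.1 and 20.6 with AzaC, and 64.6 and 8.8 untreated. S100a13 had 2 arrays under the floor and Mcpt1 had 3. Mcpt1 was dim, at 53.4 and 56.0 with AzaC/TSA and no more than 22.8 on the other arrays. Their interactions were 1.80 and 1.34, with unadjusted p of 0.224 and 0.119.

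Instead, the common form of a positive departure had TSA alone below untreated and AzaC/TSA above TSA. The pair could then stand below or above untreated. Of the 84 probe sets higher than additive, AzaC/TSA was the highest group in both experiments for 14 (16.7%). For 50 (59.5%) TSA alone was below untreated and AzaC/TSA was above TSA in both experiments, against 985 (12.3%) of all tested. Since the interaction chose these probe sets, those shares describe them and test nothing. The mirror image held for 75 (45.5%) of the 165 lower than additive, where TSA alone was above untreated and AzaC/TSA below TSA, against 1166 (14.6%) of all tested. AzaC/TSA was the lowest group in both experiments for 35 of the 165 (21.2%), and at least 2-fold below each other group for 3 of them (7 of all tested), Uba7, Hdhd5 and Mrpl54, all with a mean signal under 60.

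Seen as a change of sign, the AzaC effect ran in opposite directions with and without TSA in both experiments for 44 of the 84 and 81 of the 165, against 870 (10.9%) of all tested. The TSA effect ran in opposite directions with and without AzaC for 21 of the 84 and 65 of the 165, against 468 (5.86%) of all. The interaction that chose these probe sets is the difference between those effects. Opposite signs are therefore favoured by the choice, and the counts test nothing. Across all probe sets, the AzaC change with TSA and without it correlated with r = 0.014 in experiment 1 and 0.224 in experiment 2. Set across experiments, r was 0.001 and -0.048. For the TSA change with and without AzaC the same values were 0.664 and 0.615 within an experiment and 0.496 and 0.559 across.

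Among the probe sets higher than additive, 12 genes were named by the smaller of their departures in the 2 experiments. They were Repin1, Mzf1, Snrp1c-ps2, Cep89, H1f8, Prl, Lefty1, Ptn, Pcsk6, Sema6c, Fem1b and Plpp3, with interactions from 1.69 to 2.96. Repin1, a zinc finger protein that binds DNA, had signals of 178.6 and 164.5 with AzaC/TSA, 39.9 and 25.7 with TSA, 84.4 and 297.9 with AzaC, and 177.4 and 299.4 untreated. Both AzaC/TSA arrays stood above both TSA arrays and did not exceed the untreated ones by more than a trace. Its interaction was 3.23 and 2.69 in the experiments and 2.96 overall (SE 0.821, unadjusted p = 0.00578). A second, dimmer Repin1 probe set, with 2 arrays under the floor, gave the opposite, -1.57 and -1.50, so the direction rests on the probe set chosen.

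Lefty1, a secreted antagonist of Nodal signalling, had 85.1 and 87.1 with AzaC/TSA, 22.8 and 79.3 with TSA, 40.0 and 23.1 with AzaC, and 101.2 and 65.4 untreated, an interaction of 2.44 (SE 0.899, unadjusted p = 0.0241). Each drug alone gave a lower signal than untreated in 3 of 4 comparisons, and both AzaC/TSA arrays lay within the untreated range. Pcsk6, a protease that activates TGF-beta family ligands, had 68.7 and 109.6 with AzaC/TSA, 37.0 and 34.0 with TSA, 198.5 and 70.5 with AzaC, and 316.6 and 114.8 untreated. Its interaction was 1.98 (SE 0.878, unadjusted p = 0.0509). Ptn, the growth factor pleiotrophin, had 327.5 and 54.4 with AzaC/TSA, 173.7 and 16.1 with TSA, 359.3 and 150.7 with AzaC, and 574 and 297.3 untreated. Its interaction was 2.01 (SE 1.51, unadjusted p = 0.216, and 0.0172 with the experiment as a block), with 1 array under the floor. It was 1.59 and 2.42 in the experiments, which differed in level far more than in direction. In the unblocked fit it was 0.45 without the TSA array of experiment 2 and 3.57 without that of experiment 1. Sema6c, a membrane semaphorin of axon guidance, was highest with AzaC/TSA in experiment 1 (106.3) and second to untreated in experiment 2 (41.2 against 55.6).

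The remaining genes of this set were mostly dim. H1f8, the linker histone of oocytes, reached 38.4 and 29.1 with AzaC/TSA and 62.3 and 59.5 untreated, with 2 arrays under the floor. Prl, the pituitary hormone prolactin, had 61.2 and 55.4 with AzaC/TSA, 10.6 and 14.0 with TSA, 92.5 and 19 with AzaC, and 100 and 66.9 untreated, with 3 arrays under the floor. Such levels lie at the low end of what was tested.

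Among the probe sets lower than additive the 12 genes were Cd4, Reg2, Chst3, Ankrd11, Ciapin1, C1qtnf1, Setd6, Gpx3, Tspan3, Tenm2, Runx1t1 and Uba7, with interactions from -4.87 to -2.06. Cd4, the co-receptor of helper T cells, had the largest departure of all. Its signals were 18.9 and 14.5 with AzaC/TSA, 96.9 and 143.3 with TSA, 107.8 and 93.1 with AzaC, and 18.1 and 20.2 untreated. Each drug alone gave a higher signal on both arrays, and the pair gave one at the floor, as in untreated cells. The product of the single changes would have been 522 and 661. TSA alone raised the probe set by 2.55 (limma, adjusted p = 0.0195), and adding TSA to AzaC lowered it by a log2 change of -2.32 (adjusted p = 0.0353), both lower bounds since 3 arrays were under the floor. The interaction was -4.70 and -5.04 in the experiments and -4.87 overall (SE 0.645, unadjusted p = 3.63e-05, adjusted p = 0.290). With no intensity trend in the fit Cd4 was the only probe set called (adjusted p = 0.048).

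Reg2, a secreted lectin of the regenerating family, had 29.3 and 19.3 with AzaC/TSA, 122.9 and 172.9 with TSA, 38.4 and 66.0 with AzaC, and 11.3 and 30.3 untreated. Its interaction was -3.62 (SE 0.743, unadjusted p = 0.000894), and TSA alone raised it by 2.57 (adjusted p = 0.0295). These values rest on 2 arrays under the floor, 1 with AzaC/TSA and 1 untreated. Chst3, which adds sulfate to chondroitin, had 40.9 and 76.6 with AzaC/TSA, 105.6 and 109.2 with TSA, 55.7 and 93.8 with AzaC, and 22.8 and 18.3 untreated, an interaction of -2.70 (SE 0.699, unadjusted p = 0.0039) with 1 untreated array under the floor. Its AzaC/TSA arrays lay between untreated and TSA, so the pair stayed above untreated and below the product. The same was true of Gpx3, an extracellular glutathione peroxidase, and Tenm2, a teneurin adhesion protein of neurons, with interactions of -2.19 and -2.73 and 2 and 1 untreated arrays under the floor.

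Uba7, the enzyme that activates the ubiquitin-like ISG15, had 19.9 and 17.4 with AzaC/TSA, 55.6 and 68.2 with TSA, 101.2 and 68.6 with AzaC, and 44.0 and 61.2 untreated. Each drug alone gave a signal above untreated in both experiments, and with the pair both arrays were under the floor. Its interaction was -2.30 (SE 0.661, unadjusted p = 0.00697). Ankrd11, a chromatin cofactor that binds histone deacetylases, had 25 and 16 with AzaC/TSA, 68.2 and 99.1 with TSA, 70.7 and 92.8 with AzaC, and 22.3 and 73.7 untreated, an interaction of -2.88 (SE 0.867, unadjusted p = 0.00909) with 1 AzaC/TSA array under the floor. Runx1t1, a transcriptional corepressor, was under the floor on 4 arrays.

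**Figure D3:**
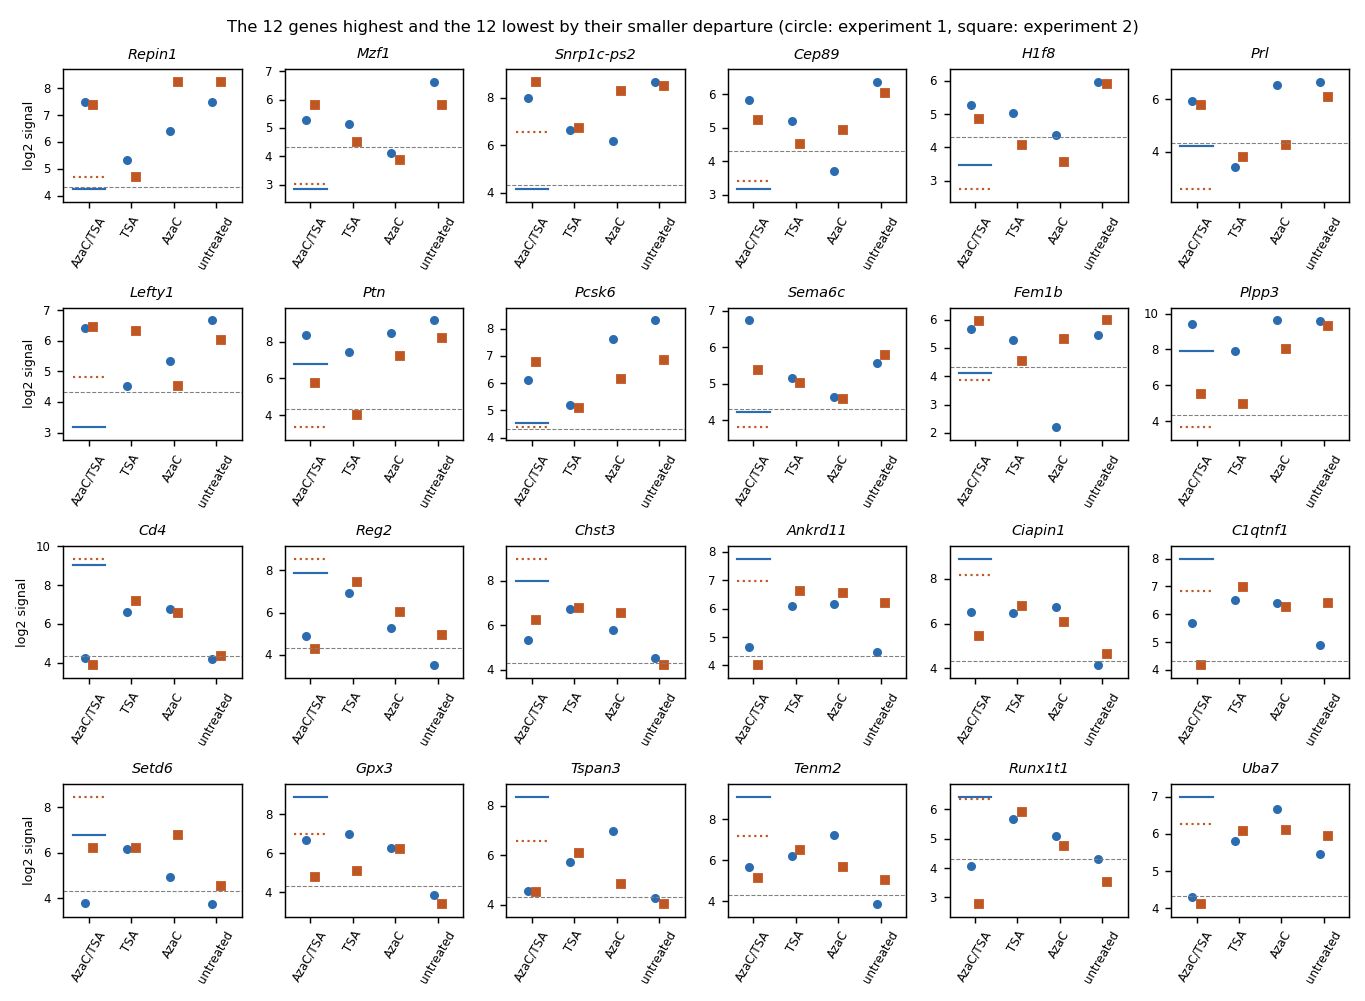
Log2 signal as deposited in the 4 groups for the 12 genes highest and the 12 lowest by the smaller of their departures (blue circles, experiment 1, orange squares, experiment 2). The short lines at AzaC/TSA mark the signal that multiplying the single changes would give (solid, experiment 1, dotted, experiment 2), and the dashed grey line is the floor of 20.01. Each AzaC/TSA point stands above its line in the upper 12 panels and below it in the lower 12, as the choice of genes requires.

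At the threshold, the last higher genes inside were Sall3 (smaller departure 1.02), H2-Eb1 (1.02) and Aldh1a1 (1.00), and the first outside were Phf13, Cenpc1 and Chl1 (1.00, 1.00 and 0.99). On the lower side Mapkbp1, C77080 and Tubg2 were just inside, Mapkbp1 at -1.01, and F11r, Usp25 and Celf1 just outside (-0.99 each). No gap separates the sides.

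Because dim probe sets agreed little between experiments, the bright ones are given in full. A probe set was called bright here when its mean signal was at least the trimmed mean and no array was under the floor, a choice made after the values were seen. Of 3525 such probe sets, 19 (0.539%) departed 2-fold the same way in both experiments, 12 higher and 7 lower, and 6 departed in opposite ways. The 12 higher were Snrp1c-ps2, Angpt2, Aldh1a1, Plpp3, Adam12, Osbpl1a, Lxn, Ctbp2, Ephx1, Adgrg1, Sall3 and 1 probe set with no single gene symbol. For 11 of the 12, all but Aldh1a1, TSA alone was below untreated and AzaC/TSA above TSA in both experiments, against 985 (12.3%) of all tested, dim ones included. AzaC/TSA was the highest group in both for 0 of the 12, against 506 (6.34%) of all tested. The interaction chose these 12 and favours that form, so the counts describe them and test nothing.

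Adgrg1, an adhesion receptor of neural progenitors whose loss disturbs the cortex, showed the pattern most evenly. It had 327.2 and 246.7 with AzaC/TSA, 174.2 and 152.9 with TSA, 855.2 and 718.2 with AzaC, and 998.7 and 1022.6 untreated. The groups did not overlap. TSA alone lowered it by a log2 change of -2.63 (adjusted p = 0.00167) and TSA added to AzaC by -1.46 (adjusted p = 0.0254), and the interaction was 1.17 (SE 0.371, unadjusted p = 0.0119). Multiplying the single changes would have given 149.2 and 107.4.

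Ctbp2, a corepressor that works with histone deacetylases, had 352.2 and 322.3 with AzaC/TSA, 246.7 and 189.2 with TSA, 350.8 and 365.5 with AzaC, and 525.8 and 547.7 untreated. Each drug alone gave a lower signal than untreated on both arrays, and the pair gave a signal close to that of AzaC. The interaction was 1.22 (SE 0.368, unadjusted p = 0.00893), and a second Ctbp2 probe set gave 0.22. Angpt2, the vessel growth factor angiopoietin 2, had 257 and 821.3 with AzaC/TSA, 143.1 and 206.3 with TSA, 563.3 and 531.3 with AzaC, and 737.6 and 887.2 untreated. Its interaction was 1.98 (SE 0.680, unadjusted p = 0.0173), and TSA alone lowered it by a log2 change of -2.24 (adjusted p = 0.0346).

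Adam12, a membrane metalloprotease, had 108.8 and 265.4 with AzaC/TSA, 69.7 and 110.8 with TSA, 595.6 and 294.4 with AzaC, and 812.3 and 526.2 untreated, an interaction of 1.59 (SE 0.725, unadjusted p = 0.0558). Osbpl1a, an oxysterol-binding protein, had 147.6 and 99.5 with AzaC/TSA, 82.9 and 76.3 with TSA, 301.9 and 155.8 with AzaC, and 430.7 and 361.4 untreated, an interaction of 1.47 (SE 0.553, unadjusted p = 0.0262). In both genes the pair stood between TSA and AzaC on every array pair of the same experiment. Lxn, a carboxypeptidase inhibitor, had 300 and 684.7 with AzaC/TSA, 131.3 and 368.3 with TSA, 294.7 and 581.2 with AzaC, and 300 and 801.4 untreated. Levels were higher in experiment 2 in every group while the interactions were 1.22 and 1.36 (overall 1.29, SE 0.923, unadjusted p = 0.197, and 0.00371 with the experiment as a block).

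Ephx1, the microsomal epoxide hydrolase of drug metabolism, was the brightest of the set, with 2705 and 4300 for AzaC/TSA, 1638 and 1061 for TSA, 2404 and 4939 for AzaC, and 3443 and 2607 untreated. Its interaction was 1.17 (SE 0.561, unadjusted p = 0.067). Aldh1a1, which makes retinoic acid, rested on a large difference between experiments: AzaC gave 1718 in experiment 1 and 173.1 in experiment 2, and the interaction was 1.00 and 2.90. Without 1 array it ran from 0.29 (AzaC of experiment 2 left out) to 3.61 (AzaC of experiment 1 left out). A second, dimmer Aldh1a1 probe set gave -0.85. Plpp3, a phosphatase of signalling lipids, had 690.8 and 46.4 with AzaC/TSA and 239.7 and 30.9 with TSA, and its interaction of 1.69 turned to -0.26 without the AzaC/TSA array of experiment 1. Snrp1c-ps2 had the highest value of the bright genes, 2.96, but it is a pseudogene measured by a probe set of the kind Affymetrix names for probes that match several related sequences, so which transcript it reports is uncertain.

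The 7 bright genes lower than additive were Foxm1, Ddit3, Tcf19, Ttc1, Mknk2, Caprin2 and Dynll2. In Ddit3, Ttc1, Mknk2 and Caprin2 TSA alone raised the signal and AzaC/TSA stood below TSA. Ddit3, the stress-induced transcription factor CHOP, had 231.7 and 268.5 with AzaC/TSA, 419.2 and 461.4 with TSA, 217 and 178.1 with AzaC, and 167.1 and 104.1 untreated. The groups did not overlap, TSA alone raised it by 1.74 (adjusted p = 0.0211), and the interaction was -1.39 (SE 0.453, unadjusted p = 0.0133). Ttc1, a tetratricopeptide adaptor protein, had 235.5 and 318.9 with AzaC/TSA, 352 and 369.9 with TSA, 227.9 and 229.4 with AzaC, and 136 and 125.3 untreated, an interaction of -1.21 (SE 0.399, unadjusted p = 0.0147).

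Mknk2, a kinase that phosphorylates the translation factor eIF4E, had 325.2 and 528 with AzaC/TSA, 617.4 and 1037.5 with TSA, 283.7 and 274.1 with AzaC, and 205.6 and 265.7 untreated. TSA alone raised it by 1.78 (adjusted p = 0.0262) and the interaction was -1.20 (SE 0.495, unadjusted p = 0.0381). Its second probe set gave -1.24, with -1.38 and -1.10 in the experiments, and Mknk2 was the only gene of the 249 with 2 probe sets past 2-fold in the same direction. Caprin2, an RNA-binding protein, had 397.6 and 785.3 with AzaC/TSA, 970.1 and 1872.1 with TSA, 101.4 and 115.9 with AzaC, and 116.4 and 119 untreated. TSA raised it with AzaC (2.37, adjusted p = 0.0222) and without (3.52, adjusted p = 0.00292), by a smaller fold in its presence, an interaction of -1.15 (SE 0.577, unadjusted p = 0.0775).

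Foxm1 and Tcf19 are genes of the dividing cell, and here AzaC/TSA was the lowest group in both experiments. Foxm1, a transcription factor that drives mitotic genes, had 49.3 and 177.7 with AzaC/TSA, 90.7 and 243.8 with TSA, 357.1 and 492.4 with AzaC, and 212.7 and 202.1 untreated. Its interaction was -1.68 (SE 0.887, unadjusted p = 0.0903), with -1.63 and -1.74 in the experiments, and a second, dimmer probe set gave 0.06. In the unblocked fit the first ran from -2.61 to -0.76, when the AzaC/TSA array of experiment 2 or of experiment 1 was left out. Tcf19, a PHD finger protein of the G1 to S transition, had 123.6 and 149.2 with AzaC/TSA, 217.2 and 331.3 with TSA, 249.8 and 288.1 with AzaC, and 217.8 and 236.7 untreated, an interaction of -1.22 (SE 0.443, unadjusted p = 0.0224). Dynll2 had -1.03 and -1.22 in the experiments, with untreated signals of 723 and 98.5. A second, dimmer Dynll2 probe set gave 0.14 and -0.54, opposite signs. In the unblocked fit the first was positive, 0.31, when the untreated array of experiment 2 was left out. That fit sets the untreated array of experiment 1 against means over both experiments.

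**Figure D4:**
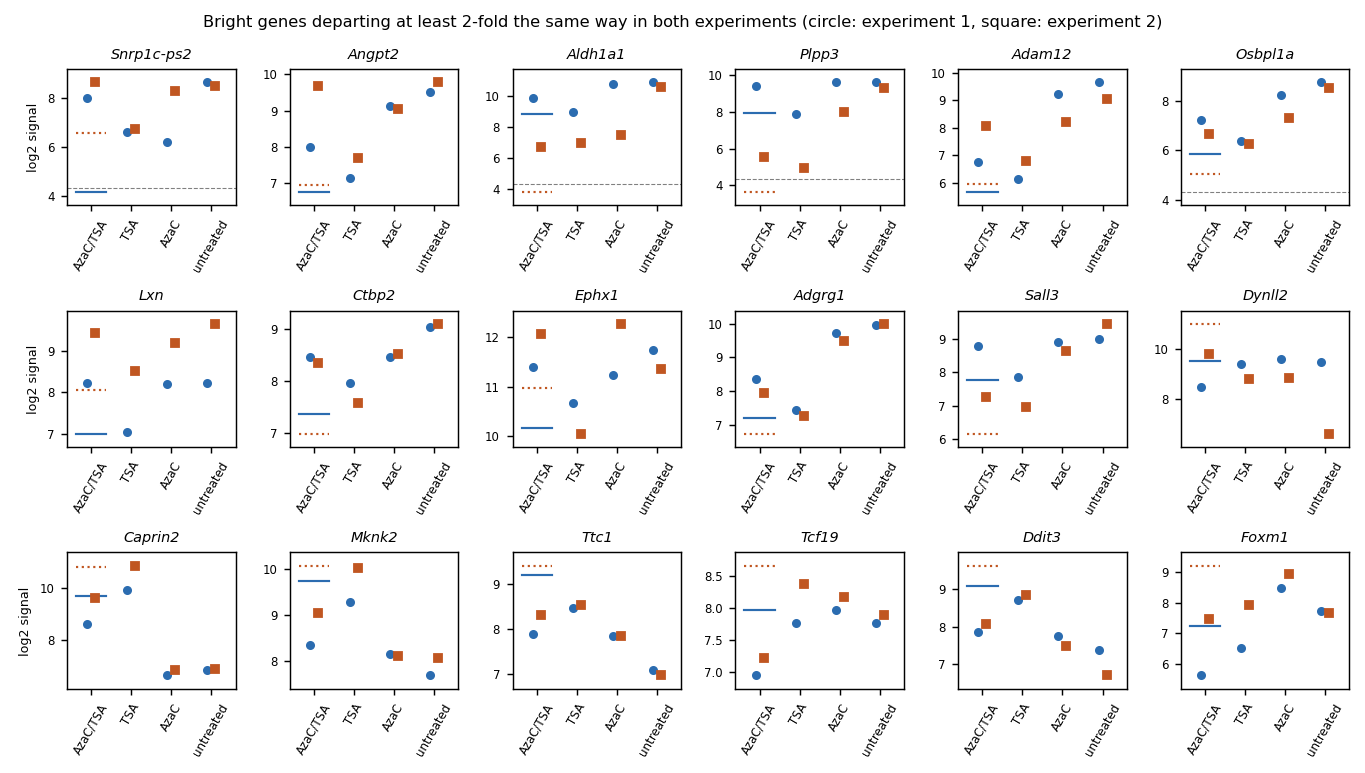
Log2 signal in the 4 groups for the 18 bright genes with a single symbol, drawn as for the other genes (blue circles, experiment 1, orange squares, experiment 2, short lines the product of the single changes). From Snrp1c-ps2 to Sall3 the AzaC/TSA points stand above their lines, and from Dynll2 to Foxm1 below them.

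Further probe sets of the same genes gave a check on the RNA already measured. The 249 had 79 pairings with another tested probe set of the same gene, and 39 (49.4%) of those had the same direction, against 662 of 1217 (54.4%) for all genes. Across all genes the interactions of the first and the further probe set correlated with r = 0.111. A single probe set was therefore a weak guide to its gene.

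The bright genes led to a reading across experiments, chosen after the values were seen and described with no test. Bright probe sets that TSA raised or lowered at least 2-fold in one experiment, averaged over its effects with and without AzaC, were read in the other experiment. Of 240 lowered in experiment 1, 73.8% had a positive interaction in experiment 2, against 52.5% of all bright probe sets. Of 312 lowered in experiment 2, 57.4% were positive in experiment 1, against 52.5%. Of 272 raised in experiment 1, 61.4% were negative in experiment 2, and of 301 raised in experiment 2, 54.2% were negative in experiment 1, both against 47.5% of all. In experiment 2 the lowered set had a median TSA change of -1.22 with AzaC and -1.47 without, and the raised set 1.03 and 1.24. In experiment 1 these medians were -0.996 and -1.14 for the lowered set and 1.00 and 1.10 for the raised one. The median TSA response was thus smaller in the presence of AzaC in all 4 readings on the deposited scale. With each array centred on its median, which moved the median interaction of all probe sets to 0.14 from -0.03, both raised sets had positive medians (0.06 and 0.09), still below those of all bright probe sets (0.25 and 0.17). The direction for raised genes therefore holds only relative to all probe sets.

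Fabp7, the radial glial fatty acid binding protein and the member of smallest p in the neural stem cell list, was bright throughout. It had 5499 and 3036 with AzaC/TSA, 2497 and 1063 with TSA, 10573 and 7830 with AzaC, and 9310 and 10920 untreated. TSA alone lowered it by a log2 change of -2.63 (adjusted p = 0.0133), TSA added to AzaC changed it by -1.15 (adjusted p = 0.197), and the interaction was 1.47 (SE 0.601, unadjusted p = 0.0368). It was 0.96 and 1.99 in the experiments. In the unblocked fit it was 0.86 without the TSA array of experiment 2 and 2.09 without that of experiment 1. Pax6, a transcription factor of cortical progenitors, had an interaction of 0.91 and Sox2 of 0.51, positive in both experiments. Other members went the other way: Id4, Dll1 and Hes1 had -0.65, -0.25 and -0.04, negative in both. Msi1 had -1.61, with opposite signs in the experiments and 4 arrays under the floor. The summed signal of the 9 stem cell markers, most of it Fabp7, Sox2 and Nes, was 13077 and 9368 with AzaC/TSA, 7678 and 5933 with TSA, 16673 and 14564 with AzaC, and 15629 and 17228 untreated. Of the 18 neural stem cell genes tested, 8 were positive and 3 negative in both experiments, against 25.7% and 29.1% of all 6011 genes. The median of the list was 0.19, against -0.02 for all genes.

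Clu, clusterin, a secreted chaperone, had the smallest p of the astrocyte list. The 10 genes of that list were mixed, with 4 positive and 3 negative in both experiments, a median of -0.02 and members such as Sparcl1 and S100b at 1.06 and 0.66. Clu had 1056 and 1022 with AzaC/TSA, 1638 and 2049 with TSA, 71.8 and 97.9 with AzaC, and 79.6 and 74.8 untreated. TSA raised it with AzaC (3.63, adjusted p = 0.000621) and without (4.57, adjusted p = 0.000219), and the interaction was -0.94 (SE 0.391, unadjusted p = 0.0401). The metallothioneins Mt1 and Mt2, which bind zinc, had interactions of -0.78 and -0.99 on TSA changes of 2.61 and 3.02 (adjusted p = 0.0138 and 0.0146). Syp, the synaptic vesicle protein synaptophysin, had -1.34 with 2 untreated arrays under the floor. The 23 neuronal genes tested had a median of -0.44, with 3 positive and 8 negative in both experiments, against 25.7% and 29.1% of all genes. With each array centred on its median, 5 (21.7%) were positive and 6 (26.1%) negative, against 38.3% and 18.4% of all genes. Relative to all genes the neuronal median was -0.41 under both scalings.

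Genes of DNA replication mostly had negative values. Of 37 tested, 22 were negative and 3 positive in both experiments, against 29.1% and 25.7% of all genes, and the median was -0.32. With each array centred on its median 12 (32.4%) were negative and 5 (13.5%) positive in both, against 18.4% and 38.3% of all genes. Relative to all genes the median was -0.29 under both scalings. Pold1, the catalytic subunit of DNA polymerase delta, had 43.6 and 133.2 with AzaC/TSA, 175 and 181.6 with TSA, 380.6 and 454.3 with AzaC, and 275.3 and 336 untreated, an interaction of -1.68 (SE 0.672, unadjusted p = 0.0344). TSA added to AzaC lowered it by a log2 change of -2.45 (adjusted p = 0.0346), and TSA alone changed it by -0.77 (adjusted p = 0.407). Prim2, Mcm4 and Fen1, of the primase, the replicative helicase and the flap nuclease, had -1.12, -0.83 and -0.76, while Mcm5 of the same helicase had 1.17.

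The 36 mitosis genes tested had a median of 0.03, with 4 positive and 13 negative in both experiments, against 25.7% and 29.1% of all genes. Once each array was centred on its median, 11 were positive and 8 negative, against 38.3% and 18.4% of all genes. Kif2c, a kinesin that takes microtubules apart at centromeres, was the most negative after Foxm1, at -1.50 (SE 0.567, unadjusted p = 0.0268), with 23.7 and 22.4 for AzaC/TSA, 40.8 and 76.1 for TSA, 291 and 353.7 for AzaC, and 247.1 and 304.2 untreated. Cdc20, which activates the anaphase-promoting complex, had an interaction of 0.10 (SE 0.418) on a TSA-alone change of -4.64, with no array under the floor. Cdkn3, a phosphatase of cyclin-dependent kinases, was 1 of the 7 probe sets at least 2-fold below each other group in both experiments, at 16.4 and 29.1 with AzaC/TSA, 52 and 66.9 with TSA, 159.2 and 205.6 with AzaC, and 151.3 and 292.2 untreated, with an interaction of -1.07 and 1 array under the floor.

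Of 22 targets of p53 and growth arrest genes, 11 were positive and 3 negative in both experiments, against 25.7% and 29.1% of all genes. The median was 0.34, against -0.02 for all genes. With each array centred on its median, 12 were positive and 2 negative, against 38.3% and 18.4% of all genes. The median was then 0.48, against 0.15. Ephx1, described above, had the smallest p of the list, and the arrest genes Gas1 and Gas2 had 0.86 and 1.00. Mdm2, the ubiquitin ligase of p53, had 0.76, Ccng1, cyclin G1, 0.81, and Cdkn1a, the kinase inhibitor p21, 0.15. None passed the test, and none of the 25 lists held a called gene, the same as for all genes (0%).

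Among the enzymes that the drugs act on, none passed the test. Dnmt1, the maintenance methyltransferase, had 187.5 and 228.7 with AzaC/TSA, 251.6 and 376.3 with TSA, 663.9 and 648.5 with AzaC, and 536 and 749.9 untreated, an interaction of -0.62 (SE 0.429, unadjusted p = 0.182). Uhrf1, which brings Dnmt1 to newly copied DNA, had 48.5 and 96.4 with AzaC/TSA, 78.8 and 114.8 with TSA, 412.7 and 788.9 with AzaC, and 343.5 and 431.6 untreated, an interaction of -1.04 (SE 0.633, unadjusted p = 0.134). TSA added to AzaC lowered Dnmt1 (-1.66, adjusted p = 0.0267) and Uhrf1 (-3.06, adjusted p = 0.00997). TSA alone lowered Uhrf1 too (-2.02, adjusted p = 0.0376), and its change of Dnmt1 was -1.04 (adjusted p = 0.0897). The deacetylases Hdac1 and Hdac2 had -0.39 and 0.25. Dnmt3a, a de novo methyltransferase, gave 0.99 and -1.67, opposite signs, with 1 untreated array under the floor.

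Imprinted genes, which are methylated on 1 parental copy, had a median of 0.15 over 16 tested, against -0.02 for all genes. In both experiments 8 were positive and 2 negative, against 25.7% and 29.1% of all genes. With each array centred on its median, 11 were positive and 1 negative, against 38.3% and 18.4% of all genes. Sgce, epsilon-sarcoglycan, had the smallest p, with 720.2 and 550.7 for AzaC/TSA, 421.8 and 419.2 for TSA, 687.2 and 512.8 for AzaC, and 856.6 and 699.5 untreated, an interaction of 0.97 (SE 0.381, unadjusted p = 0.0322). Peg10 and Peg3 had 1.22 and 0.79. Igf2, the growth factor, had 651.7 and 354.6 with AzaC/TSA, 958.9 and 472.6 with TSA, 29.9 and 25.9 with AzaC, and 47 and 113.2 untreated. Its log2 interaction was 0.90 (SE 0.742), with 0.10 in experiment 1 and 1.71 in experiment 2. The same arrays gave -160.4 signal units when additivity was reckoned on the linear scale, since TSA alone reached higher signals than the pair.

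The other lists had medians from -0.54 (microglia and macrophages, 3 genes tested) to 0.47 (endothelial cells, 3 genes), and many rest on few genes. Testis genes, which are classic targets of DNA methylation, had 3 of 19 on the array tested, and the interferon response 7 of 21. Odf1, of sperm tails, had the smallest p of the testis list, with opposite signs in the experiments (0.28 and -2.20). Mx2, an interferon-induced GTPase, had that of the interferon list, with -1.34, while Psmb9 of the immunoproteasome had 1.49 with 3 arrays under the floor.

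**Figure D5:**
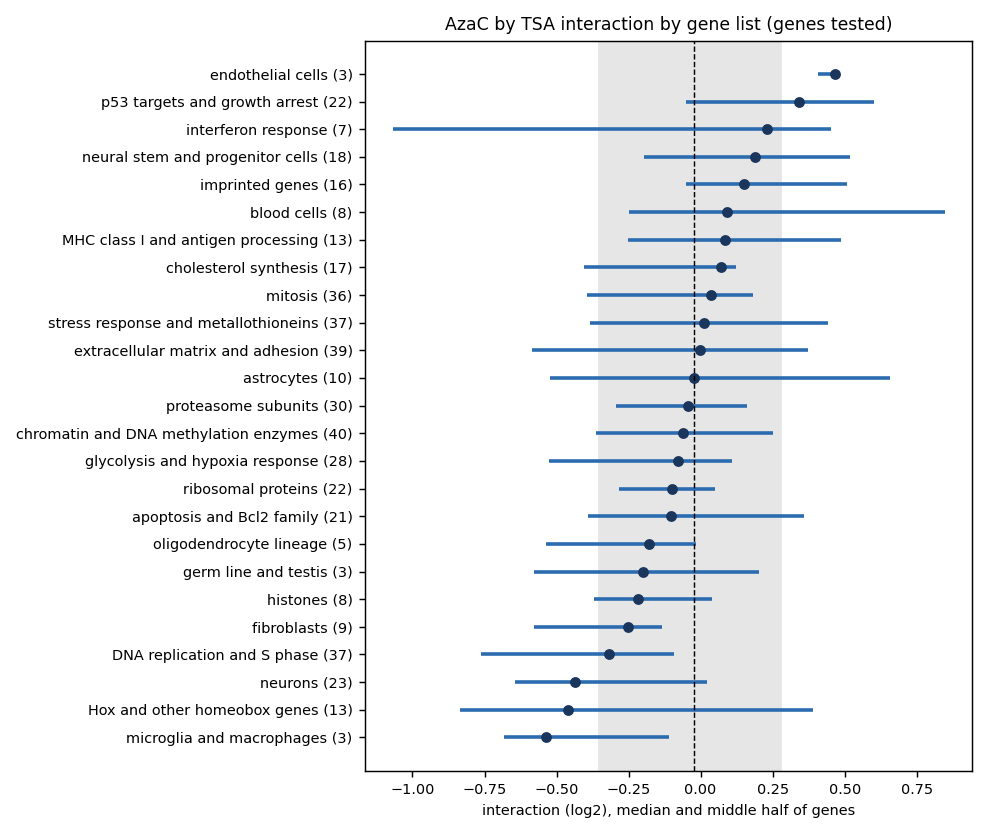
Median interaction (points, log2) and the 25th to 75th percentile over genes (bars) for each gene list, with the number of genes tested in brackets. The dashed line is the median and the grey band the 25th to 75th percentile of all 6011 genes, and only short lists and the neuron, homeobox, replication and p53 lists have medians near or beyond the edge of that band.

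AzaC acts through CG dinucleotides, so the promoters of the departing genes were read for them. The windows are from RefSeq on GRCm38.p6, 250 bases before to 50 after each gene's start, and CG reads the same on both strands. A window was found for 52 of the 65 higher and 77 of the 106 lower genes, counted by the brightest probe set of each gene. The median ratio of observed to expected CG was 0.67 for the higher and 0.60 for the lower genes, against 0.78 for 4866 of all genes tested. The dimmest quartile of all genes had 0.67, a value close to those of the departing genes, which are mostly dim. The 11 bright departing genes with a window had 0.71, against 0.82 for 2399 genes of that brightness. A CG was present in 99.4% of all windows, and its count says nothing of methylation in these cells, which was not measured.

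The extremes in each direction among the named genes read show the range. The 250 bases before the start are given with CG in capitals. Prl (chr13:27057320-27057569, plus strand) had 1 CG and Uba7 (chr9:107975317-107975566, plus strand) also 1, while Pcsk6 (chr7:65861886-65862135, plus strand) had 40 and Mknk2 (chr10:80676294-80676543, minus strand) 33. Prl and Pcsk6 were higher than additive and Uba7 and Mknk2 lower, so each direction held both kinds.
Prl: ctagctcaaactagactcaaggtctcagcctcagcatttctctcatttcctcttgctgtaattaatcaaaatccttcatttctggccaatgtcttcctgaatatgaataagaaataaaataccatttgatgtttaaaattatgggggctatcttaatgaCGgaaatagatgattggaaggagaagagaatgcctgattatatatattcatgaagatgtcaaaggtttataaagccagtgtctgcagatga
Pcsk6: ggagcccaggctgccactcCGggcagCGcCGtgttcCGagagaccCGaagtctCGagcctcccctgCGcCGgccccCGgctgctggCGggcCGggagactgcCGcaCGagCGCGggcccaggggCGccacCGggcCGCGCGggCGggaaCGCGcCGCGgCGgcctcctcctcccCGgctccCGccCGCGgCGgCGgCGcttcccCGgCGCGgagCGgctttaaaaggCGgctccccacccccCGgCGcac
Uba7: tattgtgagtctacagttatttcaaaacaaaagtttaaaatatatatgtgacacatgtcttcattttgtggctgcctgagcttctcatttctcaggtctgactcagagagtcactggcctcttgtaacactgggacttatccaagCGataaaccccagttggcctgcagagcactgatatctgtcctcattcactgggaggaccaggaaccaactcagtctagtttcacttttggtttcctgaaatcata
Mknk2: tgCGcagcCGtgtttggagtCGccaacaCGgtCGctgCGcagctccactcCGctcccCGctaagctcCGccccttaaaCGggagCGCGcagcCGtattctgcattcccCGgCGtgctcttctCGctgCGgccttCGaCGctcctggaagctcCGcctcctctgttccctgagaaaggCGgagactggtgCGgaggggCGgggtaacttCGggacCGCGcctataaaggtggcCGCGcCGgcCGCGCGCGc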

How the data were processed

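RNA of 8 neurosphere cultures was measured on short-oligonucleotide arrays, 2 per group. The values as deposited by the authors are linear intensity, 1 per probe set and array, on a common 2%-trimmed mean. The upstream software is not given in the sources used here. The file held 12488 probe sets, of which 66 controls were left out. Values were raised to a floor of 10% of the trimmed mean (20.01), probe sets with at least 2 of 8 arrays at 25% of it (50.03) were kept (7987, 64.0% of the file), and log2 was taken. The array annotation gave 1 symbol to 10855 probe sets, several to 396 and none to 1237. The 759 tested without a single symbol were counted and not named.

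The 4 group means came from limma (version 3.58.1, under R 4.3.3; lmFit and eBayes with an intensity trend), 2-sided, with Benjamini-Hochberg adjustment over the 7987. The fit was tested on simulated data. The number of arrays limits the precision, and p-values rest on 2 experiments. The experiment numbers in the labels pair the arrays: deviations from the group means correlated by experiment with r from 0.203 to 0.411 over all pairs of groups, and the experiment as a block was an alternative.

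Members and gene lists were chosen with earlier results of these data known. Named genes were the 12 largest in each direction by the smaller of the 2 experiments' values (single symbol, brightest probe set per gene, at least 4 arrays above the floor), the list member of smallest p, a set of chromatin and marker genes (of which Dnmt3b, H1f0 and H19 were not tested), and those next to the threshold. The bright genes, genes 2-fold beyond every other group, the further list members and the reading of TSA responders were chosen after the values were seen. Alternatives were the scaling, floor, filter, trend, robust fit, block and each array left out.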

Additional observations from a re-analysis of the deposited data

How the results depend on the processing

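The count of 0 interaction calls held in every alternative except 2. With no filter 11 probe sets passed (9 of them not tested otherwise), each with 5 or 6 arrays at the floor, where the spread is near 0 by construction. With no intensity trend 1 passed, Cd4 (adjusted p = 0.048). The replicate block also gave 0 calls, as did an interaction fitted within each experiment (617 at an unadjusted p of 0.05, smallest adjusted p 0.283), and the block changed no other call. Leaving out each array in turn gave 0 to 0 calls, with 93 to 219 probe sets at an unadjusted p of 0.05. The 249 probe sets departing 2-fold the same way became 90 (45 higher, 45 lower) with the filter at 50%, 90 (36 and 54) with the floor at 20%, and 114 (42 and 72) with an offset in place of the floor. Median centring gave 142 higher and 107 lower, and quantile normalization 113 and 111, so the excess of lower over higher depended on the scaling. Of the 19 bright probe sets, 14 stayed past 2-fold in both experiments under median centring, 14 under quantile normalization, 12 with the offset and 19 with the floor at 20%, and all 19 held their direction under these 4. The filters cannot change them. Reversals of single genes were few. Gsn turned to -0.80 with a floor of 2.5%, and Dnmt3a to 0.13 with a floor of 20%. The fits without 1 array did not block on the experiment, so their swings include differences in level between the experiments. Of the genes whose sign turned in them, Dnmt3a and Csf1r had opposite signs in the experiments and the others the same sign. Without 1 array, interactions ran from -1.26 to 1.67 for Gsn, -0.25 to 0.55 for Cdkn1a, -1.47 to 0.79 for Dnmt3a, -1.73 to 0.0688 for Csf1r, -2.56 to 0.31 for Dynll2, -0.26 to 3.64 for Plpp3 and -3.01 to 0.21 for F11r. The sign turned without AzaC 1, TSA 2 or untreated 1 for Gsn, without AzaC 2, AzaC/TSA 1, TSA 2 or untreated 1 for Cdkn1a, untreated 2 for Dnmt3a, Csf1r and Dynll2, AzaC/TSA 1 for Plpp3 and TSA 1 for F11r. With no change of sign they ran from 0.54 to 2.03 for Lxn, 0.65 to 1.69 for Ephx1, -2.48 to -0.87 for Pold1, 1.15 to 2.82 for Angpt2 and 0.30 to 1.82 for Sall3. Igf2 turned to -160.4 signal units on the linear scale. In alternatives added after seeing the data, the bright probe sets raised by TSA turned to medians of 0.0641 and 0.0926 under median centring, and the astrocyte list, relative to all genes, to -0.0502 under quantile normalization. The cause was not tested beyond what the construction of each alternative shows. Dim signal limits most of the 249, and departures under about 1.31 on the log2 scale were within the interval of a typical probe set.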
